A study of Mus musculus with 8 samples.

Results

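Sestrins and the proteins around them form the branch of the mTORC1 pathway that senses amino acids, and 10 of its genes were followed in a mouse leukaemia cell line, PER-M60. The members were taken by Ensembl gene ID: the sestrins Sesn1, Sesn2 and Sesn3, Ddit4, the GATOR1 genes Depdc5, Nprl2 and Nprl3, the Rag GTPase genes Rragc and Rragd, and Flcn. All 10 of the 10 were found among the 21859 gene IDs of the count table, and all 10 were among the 10729 genes that passed the filter on low counts. RNA was sequenced from 8 cultures, 4 kept in control medium and 4 exposed to osteoclast-conditioned medium. Osteoclasts are bone-resorbing cells, and conditioned medium is medium taken from them after culture. Both groups hold the same cell line, and the medium is the only labelled difference between them. How the conditioned medium was made, the time in it, and the genotype of the line are not given in the sources used here. Total counts ran from 15391754 to 21637966 per sample. In bulk RNA, a change per cell and a change in the mix of cells cannot be told apart. P-values measure the spread between these cultures, which were not stated to come from separate experiments.

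mTORC1 is a protein kinase complex that promotes protein synthesis and growth when amino acids are plentiful. Amino acids act through the Rag GTPases, which bring mTORC1 to the lysosome. GATOR1 switches off RagA and RagB, GATOR2 restrains GATOR1, and Sesn1 and Sesn2 hold GATOR2 until leucine binds and releases them. Sesn2 is a known target of ATF4, the transcription factor of the amino acid response, while Sesn1 is known as a p53 target and Sesn3 as a FoxO target. Ddit4 (REDD1) restrains mTORC1 by a separate route, through the TSC complex. The present values are transcript levels, and neither protein levels nor mTORC1 activity were measured.

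RefSeq promoter windows (GRCm38.p6, 250 bases before to 50 after the transcript start) were matched for all 10 members, with 11 windows because Sesn1 has a pair of starts. The windows of Sesn2 and Sesn3 are shown because their rises were the largest among the members called, and those of Ddit4 and Rragc because they hold a searched motif. Capitals mark matches to CACGTG, an E-box bound by the MiT/TFE factors, or to ACGTG, the core of the hypoxia response element, which lies within CACGTG. The sequences read 5′ to 3′ on the strand of the gene, at chr4:132510407-132510706 (minus strand) for Sesn2, chr9:14276051-14276350 (plus) for Sesn3, chr10:59951721-59952020 (minus) for Ddit4 and chr4:123917183-123917482 (plus) for Rragc.
Sesn2: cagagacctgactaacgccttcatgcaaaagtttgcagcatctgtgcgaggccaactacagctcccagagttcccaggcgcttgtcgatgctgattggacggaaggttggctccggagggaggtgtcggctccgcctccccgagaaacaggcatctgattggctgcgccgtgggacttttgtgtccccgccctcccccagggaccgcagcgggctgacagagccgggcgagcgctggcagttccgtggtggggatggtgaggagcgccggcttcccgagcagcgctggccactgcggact
Sesn3: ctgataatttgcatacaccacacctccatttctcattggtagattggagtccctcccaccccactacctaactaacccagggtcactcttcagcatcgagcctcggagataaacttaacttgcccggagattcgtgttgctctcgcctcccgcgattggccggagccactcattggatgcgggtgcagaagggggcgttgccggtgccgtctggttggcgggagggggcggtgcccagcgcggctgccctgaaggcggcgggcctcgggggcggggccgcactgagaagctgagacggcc
Ddit4: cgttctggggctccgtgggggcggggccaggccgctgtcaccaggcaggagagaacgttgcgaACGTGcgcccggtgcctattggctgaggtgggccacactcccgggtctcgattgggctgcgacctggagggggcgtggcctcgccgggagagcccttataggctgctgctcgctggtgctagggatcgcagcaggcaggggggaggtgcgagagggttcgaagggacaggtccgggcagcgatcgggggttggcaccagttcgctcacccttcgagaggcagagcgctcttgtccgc
Rragc: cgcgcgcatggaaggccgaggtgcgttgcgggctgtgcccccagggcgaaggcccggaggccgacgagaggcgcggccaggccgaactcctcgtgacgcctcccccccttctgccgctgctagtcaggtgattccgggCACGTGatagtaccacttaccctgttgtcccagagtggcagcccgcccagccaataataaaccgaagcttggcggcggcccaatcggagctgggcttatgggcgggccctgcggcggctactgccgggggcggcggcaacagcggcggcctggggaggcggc

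On either strand, TGATGNAA, the core of the element bound by ATF4 with C/EBP partners, was in 0 of the 11 windows of the members and in 3.97% of all 32851 windows of the same length. CACGTG was in 1 of the 11, that of Rragc, at position -112 from the start, and in 7.15% of all windows. ACGTG was in 2 of the 11, those of Ddit4 (position -187) and Rragc (the same site as CACGTG), and in 19.6% of all windows. These are matches of letters in a short window and say nothing about binding, or about sites outside the window.

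The 3 sestrins all passed the test, and not in the same direction. Sesn2 rose 2.02-fold in osteoclast-conditioned medium, Sesn3 rose by less, and Sesn1 fell slightly. Depdc5 and Flcn rose by 8.13% and 8.23%. Ddit4, Nprl2, Nprl3, Rragc and Rragd did not pass the test. In edgeR's quasi-likelihood test, 4 members were higher and 1 lower at a Benjamini-Hochberg adjusted p under 0.05 over all genes, where 30.5% of all tested genes were called (15.7% higher and 14.8% lower). When libraries were scaled by total counts only, the calls over all genes moved from 1689 higher and 1584 lower to 1383 higher and 2012 lower, and those among the members to 3 higher and 1 lower. The median log2 fold change of the 10 members was 0.08 and that of all tested genes -0.01. Levels below are normalised CPM, counts relative to library size after TMM (a scaling that assumes most genes do not change). Errors of means are SD over 4 samples.

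Sesn2 (ENSMUSG00000028893, chromosome 4, 132492032 to 132510501, minus strand, GRCm38) encodes a stress-inducible leucine sensor of the family. Its level was 21.3, 18.3, 18.8 and 20.7 normalised CPM in control replicates 1 to 4 and 36.9, 41.5, 40.4 and 40.5 in conditioned replicates 1 to 4. The lowest conditioned culture lay well above the highest control culture. The means were 19.8 ± 1.44 and 39.8 ± 2.02. This was a 2.02-fold rise, or 1.01 on the log2 scale (SE 0.06, edgeR adjusted p = 2.05e-14). By p-value it ranked 13 among the 10729 tested genes, and 30 genes had a larger rise. It was the only member past the threshold when the test asked for a change of more than 1.2-fold (edgeR adjusted p = 4.03e-12), a test that called 2.12% of all genes. Leaving out any 1 sample gave log2 fold changes from 0.97 to 1.05.

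Sesn3 (ENSMUSG00000032009; chromosome 9, 14275067 to 14333101, plus strand) encodes the sestrin known as a FoxO target. It had 31.5, 37.2, 34.2 and 35.3 normalised CPM in the control cultures and 46.0, 41.0, 47.5 and 44.0 in the conditioned ones. All 4 conditioned cultures were above all 4 control cultures, with conditioned replicate 2 the nearest to them. The mean went from 34.6 ± 2.38 to 44.6 ± 2.78. The rise of 28.9% was 0.37 on the log2 scale (SE 0.05, edgeR adjusted p = 3.29e-06). Against a 1.2-fold change the call was lost (edgeR adjusted p = 0.241).

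Sesn1 (ENSMUSG00000038332; chromosome 10, 41809935 to 41908424, plus strand), the sestrin with the most transcript per length, moved the other way. Its level was 74.3, 80.4, 71.9 and 78.5 normalised CPM in control and 70.0, 67.7, 68.8 and 69.4 in osteoclast-conditioned medium. The conditioned cultures lay close together, all below the lowest control culture. The mean went from 76.3 ± 3.86 to 69.0 ± 0.995. On the log2 scale the change was -0.15 (SE 0.04, edgeR adjusted p = 0.00341).

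**Figure D1:**
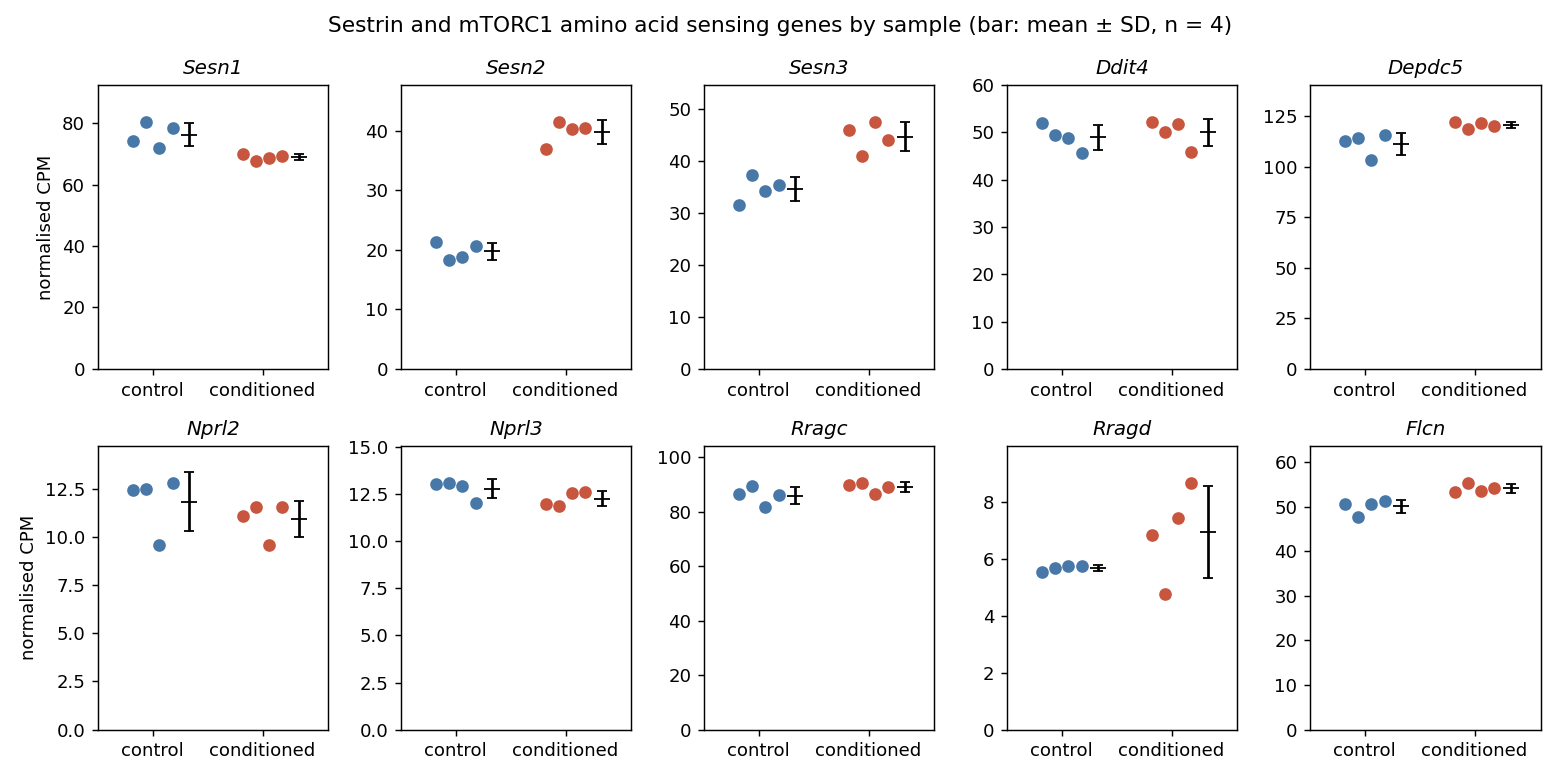
Normalised CPM (y axis, from 0, with its own scale for each gene) of the 10 members in the 4 control and 4 conditioned cultures, in replicate order, with the mean ± SD beside the points. Sesn2 lies between 18.3 and 21.3 in control and between 36.9 and 41.5 in conditioned medium, and the points of Ddit4, Nprl2, Nprl3, Rragc and Rragd overlap between media.

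Divided by exon length, the order of the sestrins was Sesn1, Sesn2, Sesn3 in both media, and the distances between them changed. In control medium the levels were 19.2 ± 0.970, 5.69 ± 0.414 and 2.26 ± 0.156 normalised CPM per kilobase, and in osteoclast-conditioned medium 17.3 ± 0.250, 11.5 ± 0.580 and 2.92 ± 0.182. The ratio of Sesn1 to Sesn2 per length, which does not depend on how libraries are scaled, was 3.05, 3.83, 3.34 and 3.31 in the control cultures. In the conditioned cultures it was 1.66, 1.42, 1.49 and 1.496. Sesn2 thus made up 20.998% ± 1.61 of the summed sestrin level per length in control and 36.1% ± 1.56 in conditioned medium. Sesn1 made up 70.7% ± 1.21 and 54.7% ± 1.18, and Sesn3 8.35% ± 0.497 and 9.22% ± 0.576. The summed level rose from a mean of 27.1 ± 1.07 to 31.7 ± 0.367 normalised CPM per kilobase. These proportions are descriptions, with no test of their own. With the length of the longest coding transcript in place of all exons, the share of Sesn2 was 19.3% and 33.2%, that of Sesn1 67.9% and 52.6%, and that of Sesn3 12.8% and 14.2%. The share of Sesn3 thus depended on the length by more than 1.5 times.

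**Figure D2:**
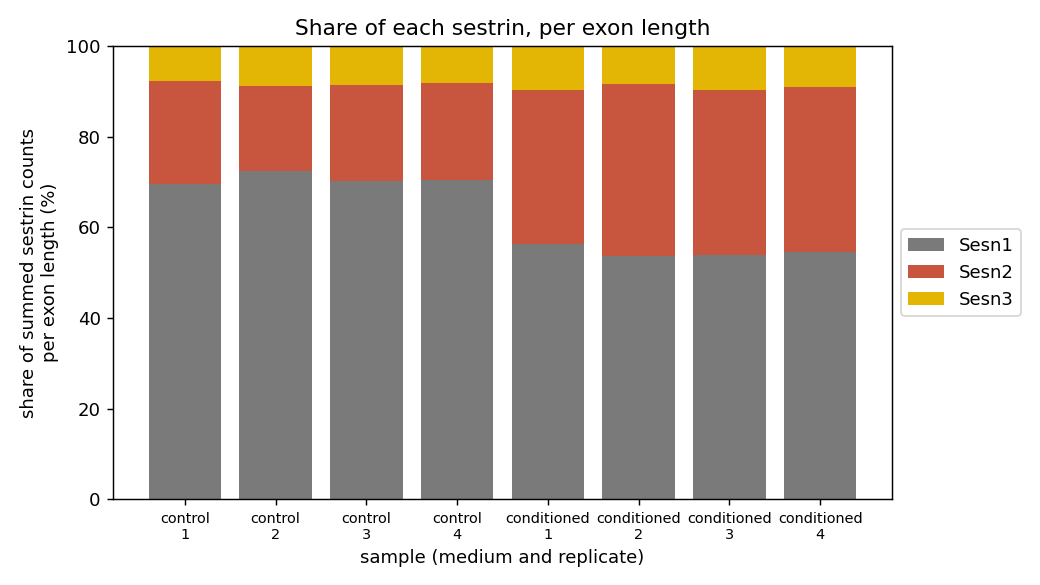
Share (%) of each sestrin in the summed sestrin counts per exon length, with 1 bar per culture (x axis: medium and replicate). The share of Sesn2 runs from 18.9 to 22.8% in the control cultures and from 34.0 to 37.7% in the conditioned cultures.

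Ddit4 (ENSMUSG00000020108; chromosome 10, 59949669 to 59951834, minus strand), a stress gene that can be induced by hypoxia, p53 and ATF4, showed no such difference. It had 52.1, 49.4, 48.7 and 45.7 normalised CPM in the control cultures and 52.2, 50.1, 51.8 and 45.9 in the conditioned ones. The ranges overlapped almost whole. The log2 fold change was 0.03 (95% interval -0.06 to 0.12, edgeR adjusted p = 0.647). Sesn2, which also restrains mTORC1, had an interval of 0.90 to 1.12. The difference between the changes of these genes was not tested.

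GATOR1 is the complex of Depdc5, Nprl2 and Nprl3 that turns off RagA and RagB. Depdc5 (ENSMUSG00000037426; chromosome 5, 32863701 to 32994236, plus strand) had 113, 114, 104 and 116 normalised CPM in control and 122, 119, 122 and 120 in conditioned medium. The groups did not overlap, as was the case for 28.2% of all tested genes, and control replicate 3 was the lowest. The log2 fold change was 0.11 (SE 0.03, edgeR adjusted p = 0.0109), a rise of 8.13%. Nprl2 (ENSMUSG00000010057; chromosome 9, 107542226 to 107545706, plus strand) had 12.4, 12.5, 9.58 and 12.8 normalised CPM in control and 11.1, 11.6, 9.56 and 11.6 in conditioned medium. Replicate 3 was lowest in both media, and the groups overlapped. Its log2 fold change was -0.12 (95% interval -0.30 to 0.05, edgeR adjusted p = 0.305). Nprl3 (ENSMUSG00000020289; chromosome 11, 32225628 to 32267707, minus strand) had 13.0, 13.1, 12.9 and 12.02 against 11.95, 11.9, 12.6 and 12.6 normalised CPM, a log2 fold change of -0.06 (95% interval -0.20 to 0.08, edgeR adjusted p = 0.548). Of the exon bases of Nprl3, 17.7% overlap Mpg on the opposite strand, and since the use of strand in counting is not given, its counts are uncertain. It is the only member whose span overlaps another listed gene.

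Per length, Depdc5 stood at 9.47 ± 0.463 normalised CPM per kilobase in control medium, above Nprl2 (5.88 ± 0.750) and Nprl3 (1.69 ± 0.0669). The level of Nprl3 depended on the length used, being 4.46 ± 0.177 with the longest coding transcript. The order of the 3 genes was the same with either length.

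RagC and RagD, encoded by Rragc and Rragd, pair with RagA or RagB, and the pair recruits mTORC1. Rragc (ENSMUSG00000028646; chromosome 4, 123917446 to 123936997, plus strand) had 86.5, 89.4, 81.6 and 86.3 normalised CPM in control and 89.7, 90.7, 86.4 and 89.3 in conditioned medium. The log2 fold change was 0.05 (95% interval -0.02 to 0.12, edgeR adjusted p = 0.313), with overlapping groups. Rragd (ENSMUSG00000028278; chromosome 4, 32983037 to 33022180, plus strand) had 5.57, 5.67, 5.76 and 5.76 normalised CPM in control and 6.87, 4.79, 7.46 and 8.69 in osteoclast-conditioned medium. The control cultures were close together, while conditioned replicate 2 lay below all of them and the other conditioned cultures above. The log2 fold change was 0.29 (SE 0.13, edgeR adjusted p = 0.091), and it rested on 911 counts in all 8 samples. Without conditioned replicate 2 it was 0.43 (edgeR adjusted p = 0.00425), and without conditioned replicate 4 it was 0.18 (adjusted p = 0.303). Rragc exceeded Rragd per length by 21.9 to 24.4 times in the control cultures and by 15.9 to 29.3 times in the conditioned ones.

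Flcn (ENSMUSG00000032633; chromosome 11, 59791408 to 59810016, minus strand) encodes folliculin, which with its FNIP partners acts on RagC and RagD and is needed for mTORC1 to act on TFEB and TFE3. It had 50.6, 47.8, 50.6 and 51.2 normalised CPM in control and 53.2, 55.4, 53.6 and 54.3 in conditioned medium. The conditioned cultures were all higher, by a small margin. The log2 fold change was 0.11 (SE 0.04, edgeR adjusted p = 0.0299). The call was lost when control replicate 2 (log2 fold change 0.0898, adjusted p = 0.0942), conditioned replicate 2 (0.105, adjusted p = 0.0797) or conditioned replicate 3 (0.118, adjusted p = 0.0542) was left out. It was also lost with scaling by total counts (0.0927, adjusted p = 0.0779) and with DESeq2 (0.115, adjusted p = 0.0818). These log2 fold changes stand against 0.114 over all cultures.

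Across all members, the level per exon length in control medium was highest for Ddit4 (27.9 ± 1.498 normalised CPM per kilobase) and Rragc (25.7 ± 0.956). Sesn1 and Flcn (11.6 ± 0.357) came next, followed by Depdc5, Nprl2, Sesn2, Sesn3, Nprl3 and Rragd (1.0999 ± 0.0176). When the longest coding transcript gave the length, Ddit4 and Rragc changed places, and so did Sesn3 (3.79 ± 0.261) and Nprl3 (4.46 ± 0.177). By exon length, Nprl2 and Sesn2 differed by less than their SD in control medium, whereas in conditioned medium Sesn2 (11.5 ± 0.580) lay between Flcn (12.5 ± 0.219) and Depdc5 (10.3 ± 0.136). These placements depended on the length. By the longest coding transcript, Nprl2 (8.21 ± 1.05) lay above Sesn2 (5.69 ± 0.414) in control medium, and Sesn2 lay below both Flcn (15.7 ± 0.275) and Depdc5 (15.2 ± 0.202) in conditioned medium.

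**Figure D3:**
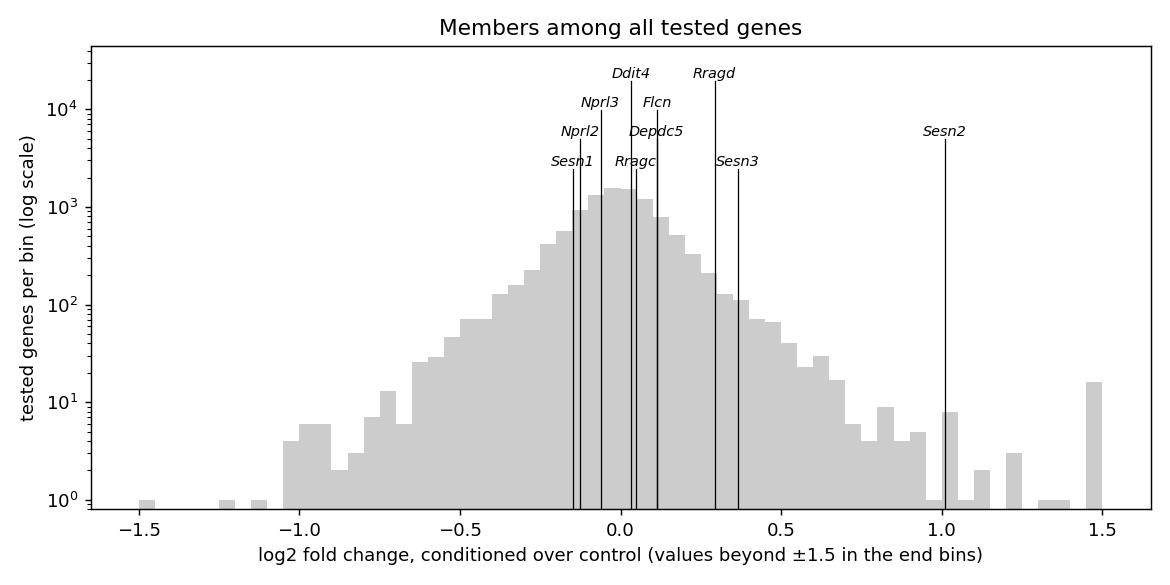
Histogram of log2 fold changes (x axis, conditioned over control) of the 10729 tested genes, with the number of genes per bin on a log scale (y axis) and a line at the value of each member. Sesn2 at 1.01 stands in the right tail, Sesn3 at 0.37 and Rragd at 0.29 on the shoulder, and the others lie between -0.15 and 0.11.

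The genes whose profile over the 8 samples was most like that of Sesn2 were Slc6a9, which encodes a glycine transporter, Atf5, a transcription factor, Atp8b4, Cth, an enzyme of cysteine synthesis, and Vldlr, a lipoprotein receptor. Likeness was the Euclidean distance between log2 CPM values after each gene's mean was removed, over 9031 genes averaging 5 CPM or more. Slc6a9 was nearest, at 0.152, with a log2 fold change of 1.00, and the other 4 lay at 0.272 to 0.286, with log2 fold changes from 0.91 to 1.104. This is a description, since all profiles come from the same 8 libraries and the difference between media is part of each.

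The other genes of the pathway came from 9 lists with 51 genes, of which 50 were matched and 44 tested. In edgeR's test 8 were higher and 2 lower, 22.7% of those tested against 30.5% of all genes, and their median log2 fold change was 0.03. On the log2 scale, each of the 10 changes was smaller in size than that of Sesn2. Among the sensors and their partners, Lars, the leucyl-tRNA synthetase, rose from 242 ± 6.05 to 301 ± 11.2 normalised CPM (log2 fold change 0.31, SE 0.03, edgeR adjusted p = 1.35e-09), and the other 5 tested did not pass. None of the 5 GATOR2 genes, on which sestrins act, passed the edgeR test, and their median log2 fold change was -0.05. The groups were apart for Wdr24 (log2 fold change -0.12, adjusted p = 0.0515) and Sec13 (-0.08, adjusted p = 0.1), as for 28.2% of all tested genes. Both had an unadjusted edgeR p under 0.05 and were named after their values were seen. Over all 9 lists, scaling by total counts called 11 pathway genes, 7 higher and 4 lower, and the genes that gained a call were not followed. Of KICSTOR, the scaffold that holds GATOR1 at the lysosome, Kptn fell from 12.6 ± 0.637 to 10.6 ± 0.760 normalised CPM (log2 fold change -0.25, edgeR adjusted p = 0.0122) and the other 2 tested did not pass.

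Among RagA, RagB and the 5 Ragulator subunits, which anchor the Rag GTPases, Rragb rose from 16.1 ± 0.717 to 18.5 ± 0.790 normalised CPM (log2 fold change 0.21, edgeR adjusted p = 0.014). Fnip1, a partner of folliculin, rose from 43.1 ± 2.19 to 49.8 ± 1.45 (log2 fold change 0.21, adjusted p = 0.00052), while Tfeb and Tfe3, the transcription factors that folliculin controls, did not pass. Tsc2, a subunit of the TSC complex through which Ddit4 acts, rose by 0.12 on the log2 scale (adjusted p = 0.00343), and Mtor, the kinase itself, by 0.13 (adjusted p = 0.000236), from 646 ± 6.48 to 704 ± 10.9 normalised CPM. None of the 3 tested mTORC2 genes passed. The list of subunits of AMPK, an energy-sensing kinase that also restrains mTORC1, had 3 genes higher and 1 lower of 7, where 30.5% of all tested genes were called (15.7% higher and 14.8% lower). Of these 4, the groups were apart for Prkaa2 and overlapped for Prkab1, Prkag2 and Prkag3. Prkaa2 rose by 0.21 on the log2 scale (edgeR adjusted p = 0.000998) and Prkab1 by 0.15 (0.00951). Prkag3, with 442 counts in all, went from 3.79 ± 0.980 to 2.44 ± 0.634 normalised CPM (log2 fold change -0.63, SE 0.20, adjusted p = 0.0181). Prkag2 (0.12, adjusted p = 0.0312) lies outside the naming rule and was named after its value was seen.

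Some of these calls were lost under other settings, while the log2 fold changes kept their sign. Without conditioned replicate 3 the number of pathway genes called fell from 10 to 6, all higher. The losses there were Kptn (log2 fold change -0.21, edgeR adjusted p = 0.0628), Rragb (0.17, adjusted p = 0.0684), Prkag3 (-0.55, adjusted p = 0.0668) and Prkag2 (0.12, adjusted p = 0.0743). Rragb was also lost without control replicate 4 (0.18, adjusted p = 0.0508). Prkag3 was lost without control replicate 1 (-0.60, adjusted p = 0.0556), control replicate 4 (-0.46, adjusted p = 0.0771) or conditioned replicate 1 (-0.53, adjusted p = 0.0784). Prkag2 was lost without control replicate 3 (0.12, adjusted p = 0.0651) or conditioned replicate 1 (0.0953, adjusted p = 0.143), and with scaling by total counts (0.103, adjusted p = 0.0756). With DESeq2 and all cultures kept, Kptn (-0.25, adjusted p = 0.052), Rragb (0.21, adjusted p = 0.0528) and Prkag2 (0.12, adjusted p = 0.0799) were not called. Kics2 had no match in the annotation, and Tm4sf5, Fnip2, Mitf, Tfec, Ddit4l and Prr5l fell below the filter on low counts.

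**Figure D4:**
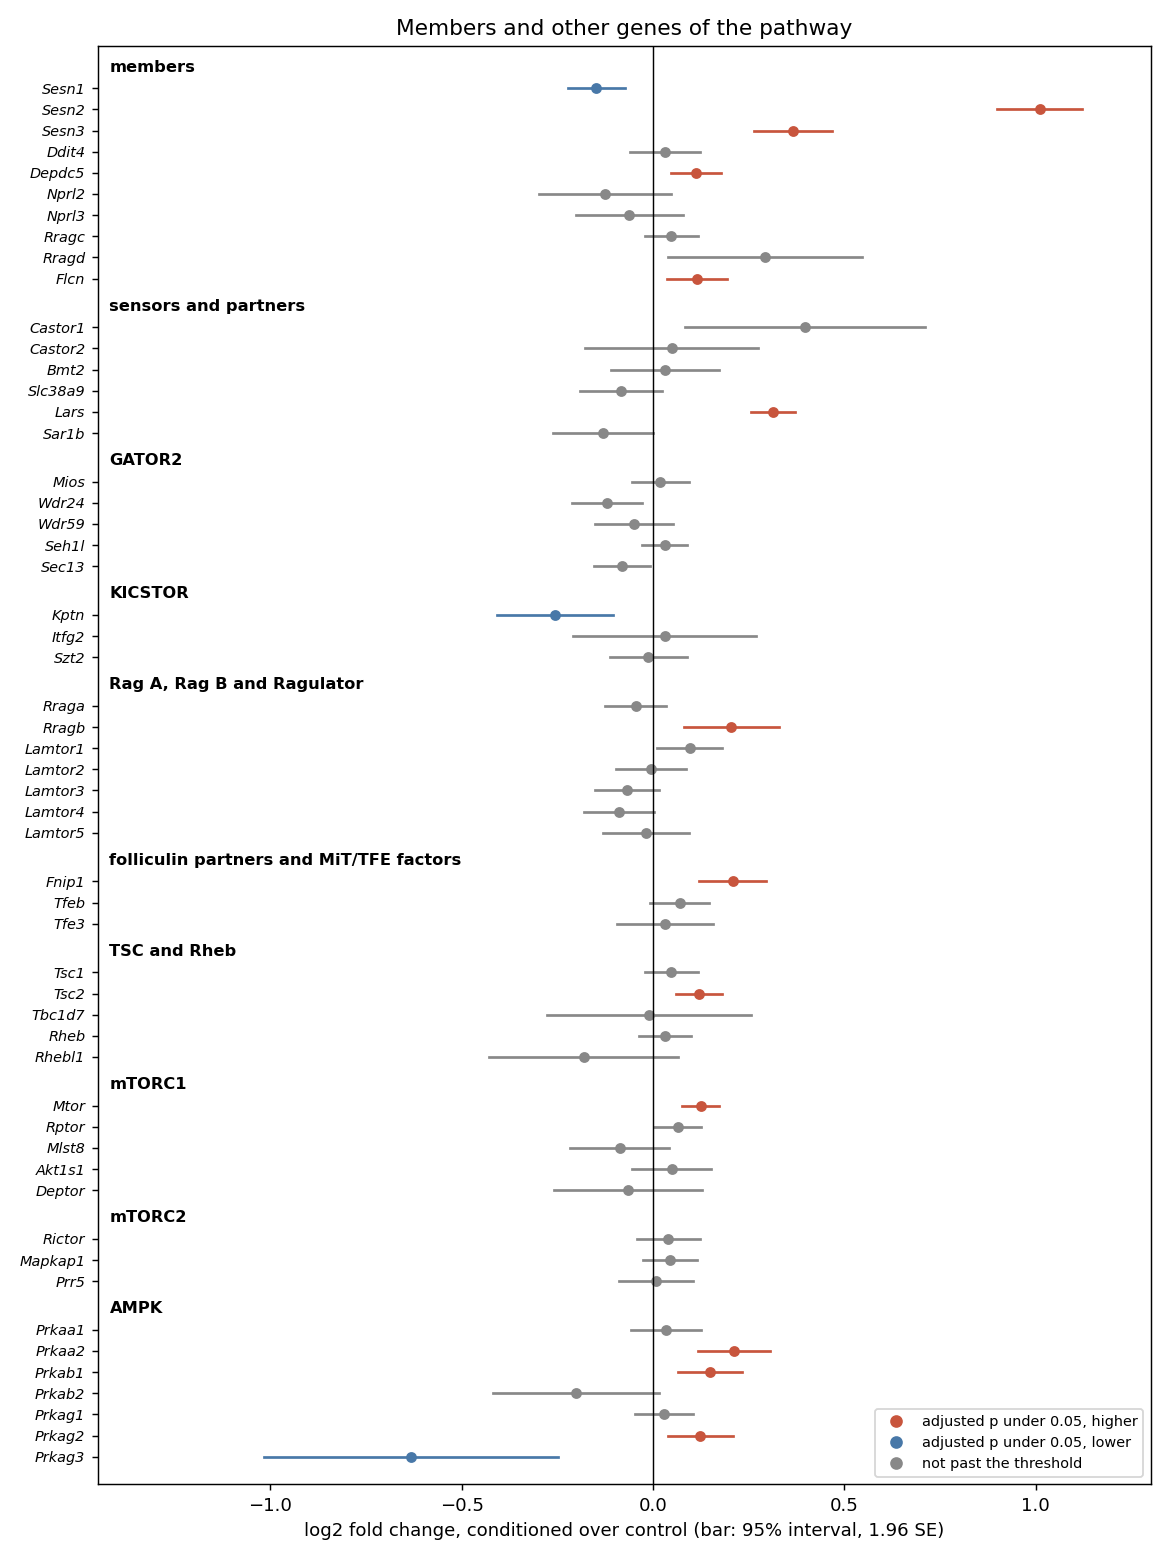
Log2 fold change (x axis, conditioned over control) with its 95% interval for the 10 members and the 44 other tested pathway genes, grouped by list (y axis) and coloured by the edgeR call. Sesn2 at 1.01 stands to the right of all other genes, and the genes not past the threshold in the lists below the members lie between -0.20 and 0.40.

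The marker genes bear on which cells the RNA came from. The B-lineage markers Cd79a, Cd79b, Pax5, Ebf1, Vpreb1, Igll1 and Ptprc had means from 205 to 1317 normalised CPM, while Rag1 and Rag2 had 0 counts. Rag1 and Rag2 lie inside the span of another listed gene, whose exons overlap 1.21% and 6.07% of their exon bases. The cause of their 0 counts was not tested. The summed level of these 9 genes was 3819 to 3873 normalised CPM in control and 4112 to 4156 in conditioned medium, with 5 of the 7 tested called higher by edgeR and the other 2 not called, where 15.7% of all tested genes were called higher. Among 10 osteoclast markers, Ocstamp and Dcstamp were at 0 and only Acp5 and Itgb3 were tested. Itgb3 was called lower, from 12.9 ± 1.41 to 10.7 ± 0.376 normalised CPM (edgeR adjusted p = 0.0185), and Acp5 was not called. The summed level of the 10 was 35.8 to 37.2 in control and 34.4 to 37.9 normalised CPM in conditioned medium. The 7 macrophage and monocyte markers summed to 18.6 to 19.7 and 19.3 to 22.9, with Cd14 and Itgam at 0. Of the exon bases of Itgam, 68.7% overlap another listed gene on the same strand, so its count is uncertain. Of this list only Lyz2 and Mrc1 were tested. Lyz2 was called higher, from 4.46 ± 0.406 to 5.91 ± 0.865 normalised CPM (log2 fold change 0.40, edgeR adjusted p = 0.0119), and Mrc1 was not called. The 5 stromal markers summed to at most 0.161. The part of these differences in the results on the sestrins was not tested.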

How the data were processed

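RNA sequencing counts of 8 PER-M60 cultures were analysed. The authors deposited 1 table of unnormalised counts, with a row for each Ensembl gene ID. STAR 2.7.5a, featureCounts 2.0.1 and the build mm10 are named in the submitters' processing notes, with no settings, and the annotation and use of strand are not given in the sources used here. Per the labels' protocols, the library kit was SureSelect HS2. Columns were matched to samples by the number in the header, which is the sample's description, and 0 were left unmatched.

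Of 21859 gene IDs, 21817 matched GENCODE M21 (GRCm38), which gave symbols, positions and lengths. Genes passing edgeR's filterByExpr (10729) entered edgeR's quasi-likelihood test (edgeR 4.0.16, R 4.3.3; TMM scaling, robust glmQLFit, then glmQLFTest) in a model of medium alone. P-values were adjusted by Benjamini-Hochberg over all tested genes, with a threshold of 0.05. Standard errors are the absolute log2 fold change divided by the square root of F, and 95% intervals are 1.96 SE on each side. The common biological coefficient of variation was 0.0304. The test was tried on simulated counts. A floor of 3 counts is 0.138 to 0.194 normalised CPM.

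The members and gene lists were chosen with earlier results of these data known. One gene of the B-lineage marker list is not reported here, and its list's values leave it out. All members were named; from each list at most 3 called genes with the largest change followed, and the 5 genes nearest to the member with the largest called change. Alternatives were other scalings, filters, tests (DESeq2 1.42.0, limma-voom from limma 3.58.1, edgeR against a 1.2-fold change), a fit without robust estimation, a replicate block, leaving out each sample, and another transcript length. Figures were made with matplotlib 3.10.9.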

Additional observations from a re-analysis of the deposited data

Results flagged for a closer look

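In each medium, the highest or lowest of the 4 values of each member was compared with the rest with Dixon's test, whose ratio divides the gap to the next value by the range. Of 20 such groups, 2 were above its 95% critical value, where chance flags about 1 in 20. Nprl2 was low in control replicate 3, at 9.58 normalised CPM against 12.4 to 12.8 in the other control cultures (ratio 0.884). Replicate 3 was also lowest in conditioned medium, at 9.56. The log2 fold change of Nprl2 was -0.20 without control replicate 3 (edgeR adjusted p = 0.0713) and -0.06 without conditioned replicate 3 (adjusted p = 0.663), against -0.12 over all cultures. Nprl3 was low in control replicate 4, at 12.02 normalised CPM against 12.9 to 13.1 (ratio 0.858), and without it the log2 fold change was -0.09 (adjusted p = 0.443). The cause of either was not tested.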

How the results depend on the processing

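Sesn2 kept its direction and its call under all 17 alternatives. Sesn1, Sesn3 and Depdc5 lost theirs only in the test against a 1.2-fold change, and Flcn under 6. Rragd gained a call under 2, with no filter on low counts (adjusted p = 0.0331) and without conditioned replicate 2. Testing against a 1.2-fold change called 227 genes, 1 member and 0 of the other pathway genes (edgeR; 2 of those 44 had an unadjusted p under 0.05, and DESeq2 and limma-voom, against no change, called 7 and 10). Leaving out 1 sample gave 2635 to 3578 called genes, 4 or 5 members and 6 to 11 pathway genes. Other settings gave 4 to 6 members and 7 to 12 pathway genes. None of the 10 members and the 10 called pathway genes reversed its direction. The other genes named were not followed across all of these alternatives. The labels number replicates 1 to 4 in both media and do not say whether same-numbered cultures were handled together. Deviations from the mean of each medium correlated at -0.05 to 0.14 between same-numbered cultures. The average for different numbers was -0.01, but removing each medium's mean ties it to the same-number average, so it is no separate yardstick. These values cannot decide whether same-numbered cultures shared any handling. With the replicate block 3446 genes, 5 members and 12 pathway genes were called. Rragd, Nprl2 and Nprl3, the members with the fewest counts, have the widest intervals. With the longest coding transcript as the length, the level per kilobase in conditioned medium moved by more than 1 SD for Sesn1, Sesn3, Depdc5, Nprl2, Nprl3, Rragc and Flcn. In control medium it did so for the same genes except Sesn1, and for Rragd.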

Other observations

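These genes were picked after their values were seen. Castor1, which encodes an arginine sensor that, like the sestrins, binds GATOR2, had 2.65 ± 0.470 normalised CPM in control and 3.52 ± 0.727 in conditioned medium. The change was 0.40 on the log2 scale (SE 0.16, edgeR adjusted p = 0.058), with overlapping groups. With no filter on low counts its adjusted p was 0.0422. Mitf, a MiT/TFE factor, lay below the filter with 63 counts in all, at 0.262 ± 0.0461 and 0.613 ± 0.237 normalised CPM. The media did not overlap, and with no filter its log2 fold change was 1.19 (SE 0.42, edgeR adjusted p = 0.0239).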
